A study of Mus musculus with 6 samples.

Results

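The natriuretic peptide system of the mouse heart was examined through 10 genes: the hormone genes Nppa, Nppb and Nppc, the receptor genes Npr1, Npr2 and Npr3, the protease genes Corin, Furin and Mme, and Prkg1, a kinase of the receptors' second messenger. Its members were the probe sets that the platform's probe-to-gene table assigns to 1 of these symbols, which gave 14 probe sets of 45101 on the array, for 10 of the 18193 genes named on it. The array data come from left ventricles of 6 C57BL/6 mice, an inbred strain prone to diet-induced obesity. Of these, 3 were treated with Lira, an agent whose name the labels do not spell out, and the other 3 with placebo. Both groups were male, 6 months old and on a high fat diet for 16 weeks. Each mouse gave 1 Affymetrix array, and the design text speaks of 10 mice, of which these 6 were analysed here. The labels do not name the route, dose or duration of the agent. The values are fluorescence signals in arbitrary linear units.

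The sample description names the left ventricle, whereas the extraction text in the labels mentions blood. The cardiomyocyte myosin gene Myh6 read 31552 to 39205 with Lira and 31826 to 33442 with placebo, and the haemoglobin gene Hba-a1 read 6.92 to 17.4 with Lira and 0.856 to 31.8 with placebo. Hba-a1 had 1 probe set of its own and Hbb-bt, another haemoglobin gene, had 0. Probe sets shared by several genes were not used, so the amount of blood cannot be read from these values. The 3' to 5' signal ratio of the Gapdh control probe sets, a check of RNA integrity, was 0.782 to 0.83 with Lira and 0.781 to 0.828 with placebo. For Actb it was 1.625 to 1.739 with Lira and 1.55 to 1.667 with placebo, so the groups overlapped in both controls. Across genes, the Pearson correlation between any pair of arrays lay between 0.9741 and 0.9816, and genes are not independent replicates. Markers of leukocytes and of smooth muscle had higher summed signals on every Lira array than on any placebo array, with 3093 to 3446 against 2357 to 3013 for 6 leukocyte genes and 11522 to 13120.2 against 10105 to 11339 for 8 smooth muscle and pericyte genes. The log2 difference, Lira minus placebo, was above 0 in all 5 tested leukocyte genes and in 4 of 7 tested smooth muscle genes. Every Lira array lay above every placebo array in 2 of these leukocyte and 1 of these smooth muscle genes. Of all genes tested, 5.99% showed this pattern. In the leukocyte list Lyz2 was the brightest, and its groups overlapped, at 1475 to 1984 with Lira and 1263 to 1771 with placebo. In the other 7 marker lists the summed signals of the groups overlapped. In the smooth muscle list Acta2 made up most of the gap, with 3377, 1579 and 1518 in the Lira mice and 1122, 1074 and 1391 in the placebo mice. The part of these cells in the values below was not tested.

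Atrial natriuretic peptide, from Nppa, and brain natriuretic peptide, from Nppb, are hormones that cardiomyocytes secrete when the heart wall is stretched. They lower blood pressure and blood volume through the guanylyl cyclase receptor encoded by Npr1, which makes cGMP and so activates the kinase encoded by Prkg1. C-type natriuretic peptide, from Nppc, acts through the related receptor encoded by Npr2. The receptor encoded by Npr3 removes the peptides from the circulation, and neprilysin, from Mme, degrades them. The surface protease corin cuts the atrial prohormone to its active form, and furin cuts the C-type and, with corin, the brain prohormone. In the adult mouse Nppa is expressed mainly in the atria, and ventricular expression of Nppa and Nppb is known to go up in hypertrophy and failure.

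The comparison asks whether the system differed in the hearts of mice on a high fat diet that were given Lira. Nppa was the member with the lowest unadjusted p. It read 2142, 1386 and 1862 in the 3 Lira mice, against 2845, 2610.3 and 3037 in the 3 placebo mice. All 3 Lira ventricles lay below all 3 placebo ventricles, with Lira replicate 1 and placebo replicate 2 nearest to each other. The means were 1797 ± 382 with Lira and 2831 ± 214 with placebo (SD, n = 3 each). On the scale of log2(signal + 16), the difference, Lira minus placebo, was -0.67 ± 0.13 (SE), with a 95% confidence interval of -0.96 to -0.38, or 0.628-fold (0.515 to 0.766). In limma, fitted to 12735 genes, its unadjusted p was 0.00021 and its adjusted p was 0.17, so Nppa did not pass the threshold of 0.05 after Benjamini-Hochberg adjustment. In bulk tissue, fewer cells that express a gene and less RNA per cell cannot be told apart.

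Of the 10 members, 8 had a mean signal above the filter on low values and were tested. 0 of these 8 passed an adjusted p of 0.05 in limma, where 0.0550% of all genes tested did. At an unadjusted p under 0.05 there was 1, Nppa, against 6.00% of all genes. Nppa was also the 1 tested member with every Lira array below every placebo array, a pattern shown by 5.46% of all genes tested. The log2 difference was below 0 in 3 tested members and above 0 in 5, with a median of 0.04. Over all genes tested the median was 0.008 and 48.0% were below 0.

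**Figure D1:**
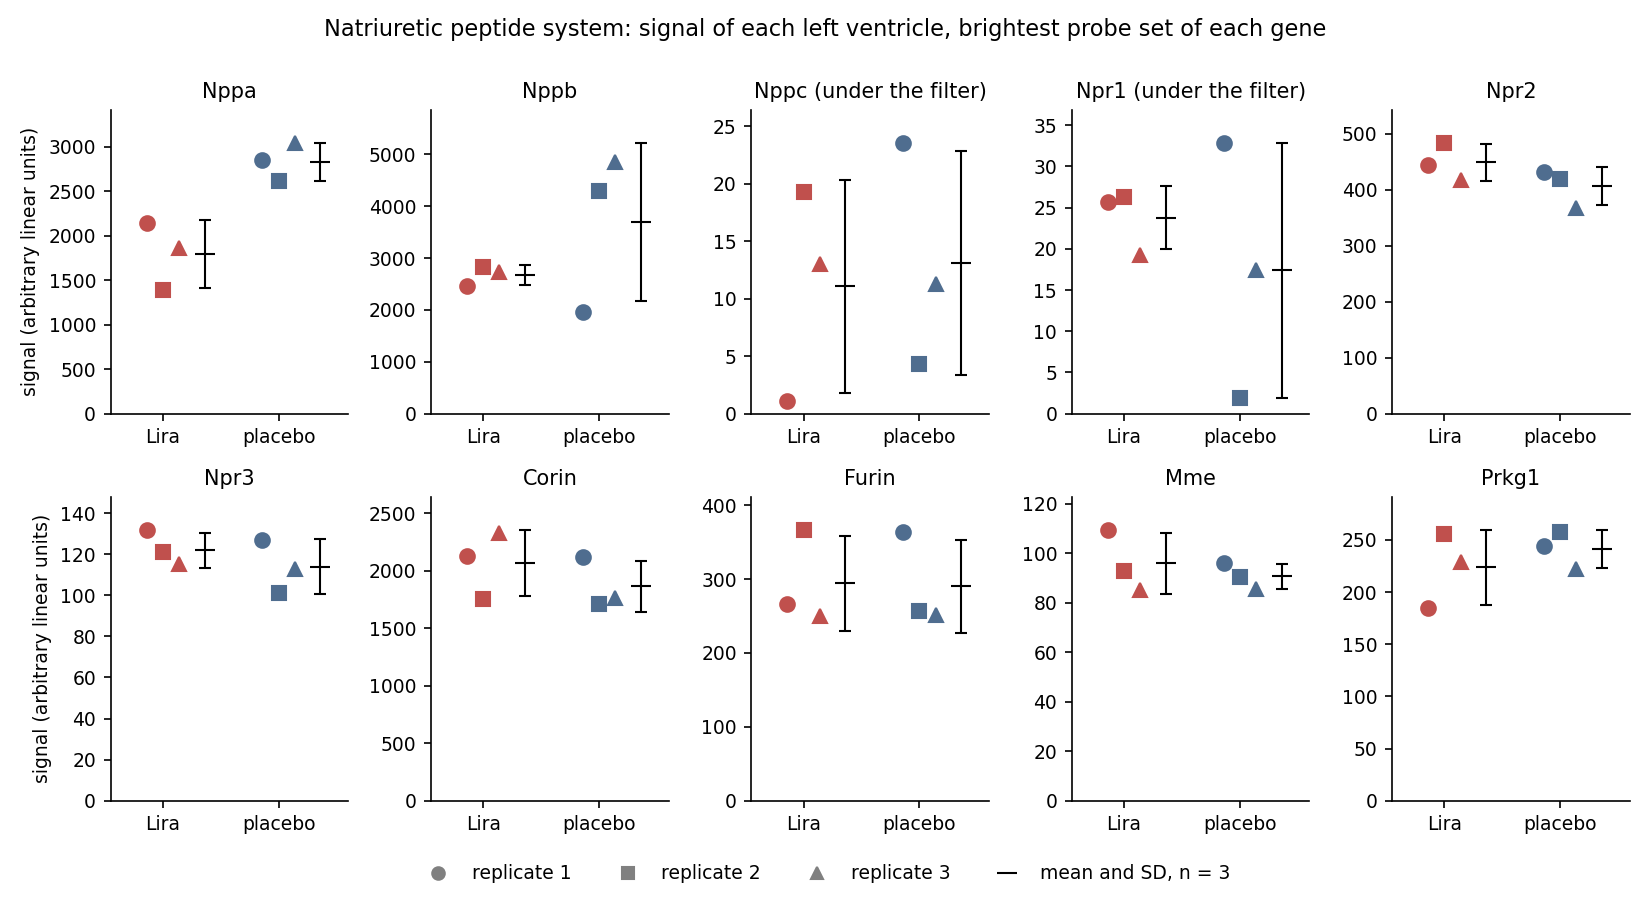
Signal of the brightest probe set of each of the 10 genes in every left ventricle (vertical axes in arbitrary linear units from 0, a separate axis for each gene). Symbols mark the replicate number, and the black marks beside them the mean and SD of 3 mice. Nppa is the panel in which all Lira mice (1386 to 2142) sit below all placebo mice (2610.3 to 3037), and in the Nppb panel placebo replicate 1 sits apart at 1960.

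Nppb showed a different arrangement of the same mice. It read 2453, 2825 and 2735 in the Lira mice, against 1960, 4283 and 4846 in the placebo mice. The 3 Lira values were close together and lay between the lowest placebo mouse and the other placebo mice, so the groups overlapped. The means were 2671 ± 194 with Lira and 3696 ± 1529.8 with placebo (SD, n = 3 each), and the log2 difference was -0.37 ± 0.24 (SE; 95% confidence interval -0.88 to 0.15; unadjusted p = 0.15, adjusted p = 0.87 in limma). Without placebo replicate 1 the difference was -0.77 ± 0.11 with an adjusted p of 0.039 in limma, in a range of 0.039 to 0.999 over 18 alternative settings. Without placebo replicate 3, the highest mouse, it was -0.12.

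By the brightest probe set, placebo replicate 1 was not the lowest placebo mouse in any other member gene. It was the lowest in the dimmest probe set of Npr3 (15.7, against 28 and 20.5). The same held for the dimmer probe set of Prkg1 (23.5, against 29.7 and 26.8). On that array Nppa, at 2845, was the middle placebo value, and Corin at 2117 and Furin at 363 were the highest placebo values. Its correlation with the other arrays was 0.9753 to 0.9816, which lies within the range over all pairs. Of the atrial markers, Bmp10, a growth factor of atrial cardiomyocytes, read 4.73, 77.4 and 4.33 in the Lira mice and 6.96, 58.2 and 66.1 in the placebo mice, lowest of the placebo mice on that array. Myl7 was lowest there too, while Myl4, Kcnj3 and Dkk3 had their highest placebo values on it and Sln its middle one. The part of atrial tissue in the Nppb values was not tested.

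Markers of atrial cells, which express Nppa strongly, were read beside it. The atrial myosin light chain Myl7 was dim on every array, at 1.44 to 3.34 with Lira and 2.18 to 17.3 with placebo, under the filter. Sln, sarcolipin, was also under the filter, at 3.13 to 32.3 with Lira and 13.1 to 24.1 with placebo, as was Dkk3, at 3.74 to 21.6 with Lira and 8.94 to 30.8 with placebo. Myl4, the other atrial light chain, read 115, 120 and 109 in the Lira mice against 108, 77.1 and 93.9 in the placebo mice (log2 difference 0.27 ± 0.17, adjusted p = 0.87 in limma). Kcnj3, a potassium channel subunit, read 784, 509.7 and 550.5 with Lira and 556, 509 and 553 with placebo. Of 6 atrial markers 3 were tested and 0 passed in limma, with 0 at an unadjusted p under 0.05, and the summed signal of all 6, mostly that of Kcnj3, was 685 to 917 with Lira and 709 to 743 with placebo. The log2 differences of Bmp10 (-0.61), Dkk3 (-0.47), Myl7 (-0.40) and Sln (-0.13) had the sign of Nppa, and those of Myl4 and Kcnj3 (0.16) the opposite one. None of the 6 read 0 on any array, but no detection calls were used, so low signals here do not separate presence from absence.

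**Figure D2:**
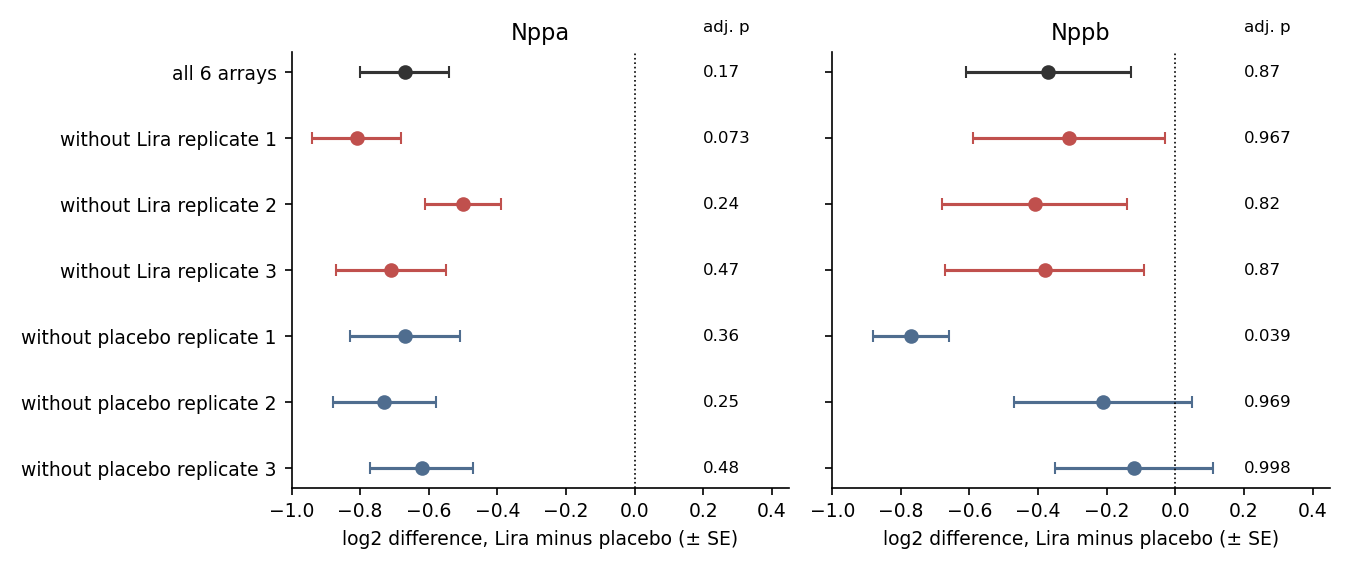
Log2 difference, Lira minus placebo, of Nppa and Nppb with all 6 arrays and with each array left out in turn (points, with the SE as bars and the adjusted p in limma at the right). Nppa stays between -0.81 and -0.50 in every case, whereas Nppb runs from -0.77 without placebo replicate 1 to -0.12 without placebo replicate 3.

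With each array left out in turn, Nppa had log2 differences from -0.81 to -0.50 and adjusted p from 0.073 to 0.48 in limma. The lowest difference came without Lira replicate 1, the Lira mouse with the most Nppa, and the difference nearest to 0 without Lira replicate 2, the mouse with the least. The sign of Nppb was also negative in each of these fits. Lira replicate 2 correlated with the other arrays at 0.9741 to 0.9779, where 0.9741 was the lowest value of any pair. Its summed signal of 9 cardiomyocyte markers, 262283, was the highest of all arrays. With weighted arrays the Nppa difference was -0.59. The part of array quality in the Nppa values was not tested. Whether Nppa and Nppb differed from each other in their response was not tested.

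Nppa and Nppb are neighbours on chromosome 4, with annotated transcription starts 14822 bases apart on the GRCm38.p6 assembly of RefSeq. The 250 bases before each start are shown because these 2 hormone genes had the lowest differences of the tested members while their values by mouse were arranged differently. Sequences are from the RefSeq promoter table, 5′ to 3′ on the plus strand, at chr4:148000472-148000721 for Nppa and chr4:147985650-147985899 for Nppb. Capitals mark matches, on either strand, to the core letters of motifs bound by known regulators of cardiac genes: GATAA for GATA factors, TNAAGTG for NKX2-5, CATTCC (read GGAATG on the other strand) for the TEAD factors that bind the MCAT element, and TATAAA for the TATA box.
Nppa: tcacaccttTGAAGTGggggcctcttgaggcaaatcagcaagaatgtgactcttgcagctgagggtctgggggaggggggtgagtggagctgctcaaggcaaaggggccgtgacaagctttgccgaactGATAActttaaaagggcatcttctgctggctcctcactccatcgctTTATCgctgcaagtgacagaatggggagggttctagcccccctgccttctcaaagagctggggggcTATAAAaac
Nppb: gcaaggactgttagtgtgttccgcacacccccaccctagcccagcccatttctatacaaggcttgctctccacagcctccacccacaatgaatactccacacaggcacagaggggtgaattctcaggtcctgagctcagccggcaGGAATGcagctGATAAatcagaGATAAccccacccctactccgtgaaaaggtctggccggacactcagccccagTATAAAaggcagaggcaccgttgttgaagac

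Each of the 2 windows held 2 matches to GATAA. In Nppa they began 121 and 75 bases before the start, the second on the opposite strand and so printed as TTATC, and in Nppb they began 94 and 83 bases before it. Nppa also held TNAAGTG, beginning 241 bases before its start, and Nppb held CATTCC on the opposite strand, beginning 105 bases before its start. TATAAA began 9 bases before the start in Nppa and 31 before it in Nppb. None of these matches overlapped another. Of 32851 RefSeq promoter windows that run from 250 bases before to 50 after a start, 25.4% held GATAA on either strand, 11.5% TNAAGTG, 14.7% CATTCC and 13.6% TATAAA. The AP-1 letters TGANTCA, in 7.8% of windows, and the CArG box of serum response factor, searched in its strict form and held by 1.6%, had no match in either gene's window. The 10 members had 14 such windows, since some have several starts, of which 3 held GATAA and 4 held TATAAA. A match is a run of letters and not evidence of binding. Sites that differ from these letters were not searched, so a missing match does not show that a site is absent.

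**Figure D3:**
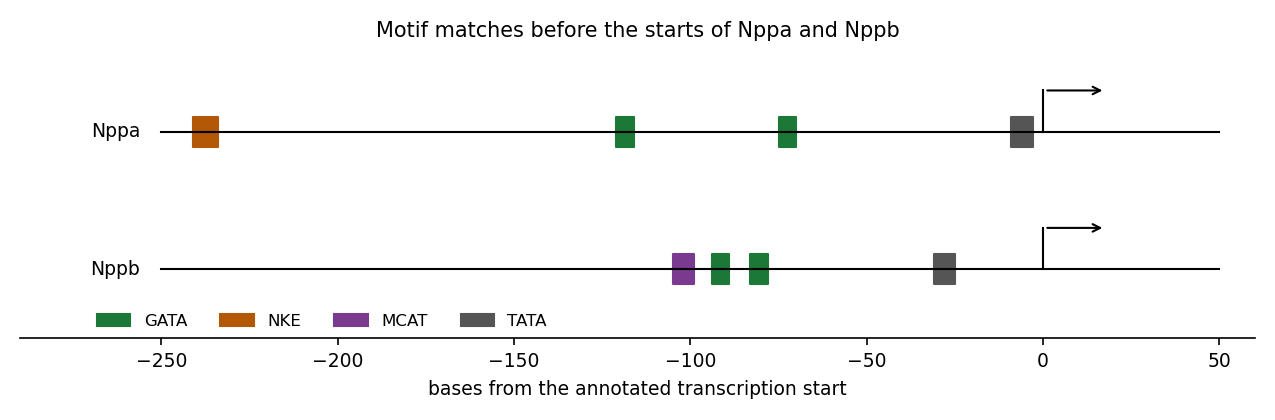
Matches to 4 motifs (coloured blocks) before the annotated starts of Nppa and Nppb (horizontal axis in bases from the start, the arrow showing the direction of transcription). Each gene holds 2 GATA matches and a TATA match, with NKE (TNAAGTG) in Nppa and MCAT (CATTCC) in Nppb.

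The genes with profiles nearest to Nppa were found by centring each gene's log2 values on its mean and taking the root mean square difference from Nppa over the 6 arrays. Uncharacterised transcripts were left out of the choice. The nearest 5 of the remaining genes were Hspa1l, Adamts9, Glt28d2, Snapc4 and Per2, at 0.055 to 0.126. Hspa1l, a member of the Hsp70 family, read 54.1, 32 and 47.8 in the Lira mice and 84.8, 72.3 and 79.6 in the placebo mice. Adamts9, a secreted metalloprotease, read 176, 100.3 and 128 with Lira and 218, 205 and 257 with placebo. Per2, a component of the circadian clock, read 124, 85.2 and 103 with Lira and 163, 165 and 230 with placebo. Each of the 5 was lowest in Lira replicate 2, as Nppa was. They were chosen for this likeness, so their differences support nothing further. Among all 12734 other genes, uncharacterised transcripts included, Nppb ranked 9021st in likeness to Nppa, at 0.497. With uncharacterised transcripts again left out, the 5 genes nearest to Nppb, at 0.126 to 0.176, were Hmmr, Kif26b, Kcne1, Clec2d and Afap1l1. The first 4 of these read at most 187 on any array. Afap1l1 read 621, 540.1 and 589 in the Lira mice and 502, 838 and 956 in the placebo mice.

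The third hormone gene, Nppc, was dim and under the filter. It read 1.08, 19.3 and 13 in the Lira mice, against 23.6, 4.31 and 11.3 in the placebo mice. The values were scattered in both groups without order. In the fit with no filter its log2 difference was -0.11 ± 0.34 (SE; 95% confidence interval -0.87 to 0.65), so a change of either sign was not detectable at this signal.

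Among the receptors, Npr1, which binds the atrial and brain peptides, was also under the filter. It read 25.7, 26.3 and 19.3 in the Lira mice, against 32.9, 1.85 and 17.4 in the placebo mice. All Lira values lay inside the placebo range, and the log2 difference without a filter was 0.36 ± 0.36 (SE; 95% confidence interval -0.43 to 1.16). With a pseudocount of 1 in place of 16 it was 1.02 ± 0.85 (SE). A change of either sign was not detectable at this signal.

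Npr2, the C-type peptide receptor, was measured more closely than the other receptors. It read 444, 484 and 418 in the Lira mice, against 431, 419.7 and 367 in the placebo mice. The groups overlapped, and the log2 difference was 0.14 ± 0.11 (SE; 95% confidence interval -0.10 to 0.38; adjusted p = 0.89 in limma), which as a fold is 1.1 with an interval of 0.93 to 1.31. Npr3, the clearance receptor, had 3 probe sets. Its brightest read 132, 121 and 115 in the Lira mice, against 127, 101 and 113 in the placebo mice, with a log2 difference of 0.10 ± 0.15 (SE; 95% confidence interval -0.24 to 0.43; adjusted p = 0.955 in limma). The other 2 probe sets were dimmer, with means of 34.1 and 18.9, and had the opposite sign at -0.31 ± 0.30 and -0.21 ± 0.29 (SE). All 3 intervals included 0, and no direction can be given for Npr3.

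Of the proteases, Corin had a single probe set, which read 2124, 1757 and 2327 in the Lira mice, against 2117, 1714 and 1760.1 in the placebo mice. Lira replicate 2 lay among the placebo mice and placebo replicate 1 among the Lira mice. The means were 2069 ± 289 with Lira and 1864 ± 221 with placebo (SD, n = 3 each), and the log2 difference was 0.15 ± 0.12 (SE; 95% confidence interval -0.10 to 0.40; adjusted p = 0.89 in limma). As a fold the interval ran from 0.93 to 1.32. With 1 array left out, the difference ran from 0.06 without Lira replicate 3 to 0.26 without Lira replicate 2 (unadjusted p = 0.041, adjusted p = 0.73 in limma). It was also above 1.5 times its value with all arrays without placebo replicate 1 (0.24), and below it by as much without placebo replicate 2 (0.09).

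Furin read 266, 367 and 249.6 in the Lira mice, against 363, 257 and 251 in the placebo mice. In each group 1 mouse was high and the other 2 were close to each other, and the log2 difference was 0.02 ± 0.17 (SE; 95% confidence interval -0.35 to 0.38; adjusted p = 0.997 in limma). Mme, the neprilysin gene, read 109.6, 93 and 85.1 in the Lira mice, against 96, 90.5 and 85.7 in the placebo mice, with a log2 difference of 0.06 ± 0.17 (SE; 95% confidence interval -0.30 to 0.43; adjusted p = 0.977 in limma). The ranges of the 2 groups nearly coincided at their lower ends. Its dimmer probe set, with a mean of 32.7, gave -0.08 ± 0.28 (SE).

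Prkg1, which encodes cGMP-dependent protein kinase I, read 185, 256 and 229 in the Lira mice, against 244, 258 and 222 in the placebo mice. Lira replicate 1 was the lowest mouse and the other 5 overlapped. The log2 difference was -0.11 ± 0.14 (SE; 95% confidence interval -0.42 to 0.19; adjusted p = 0.946 in limma), and the dimmer of its probe sets, with a mean of 23.6, gave -0.27 ± 0.30 (SE).

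**Figure D4:**
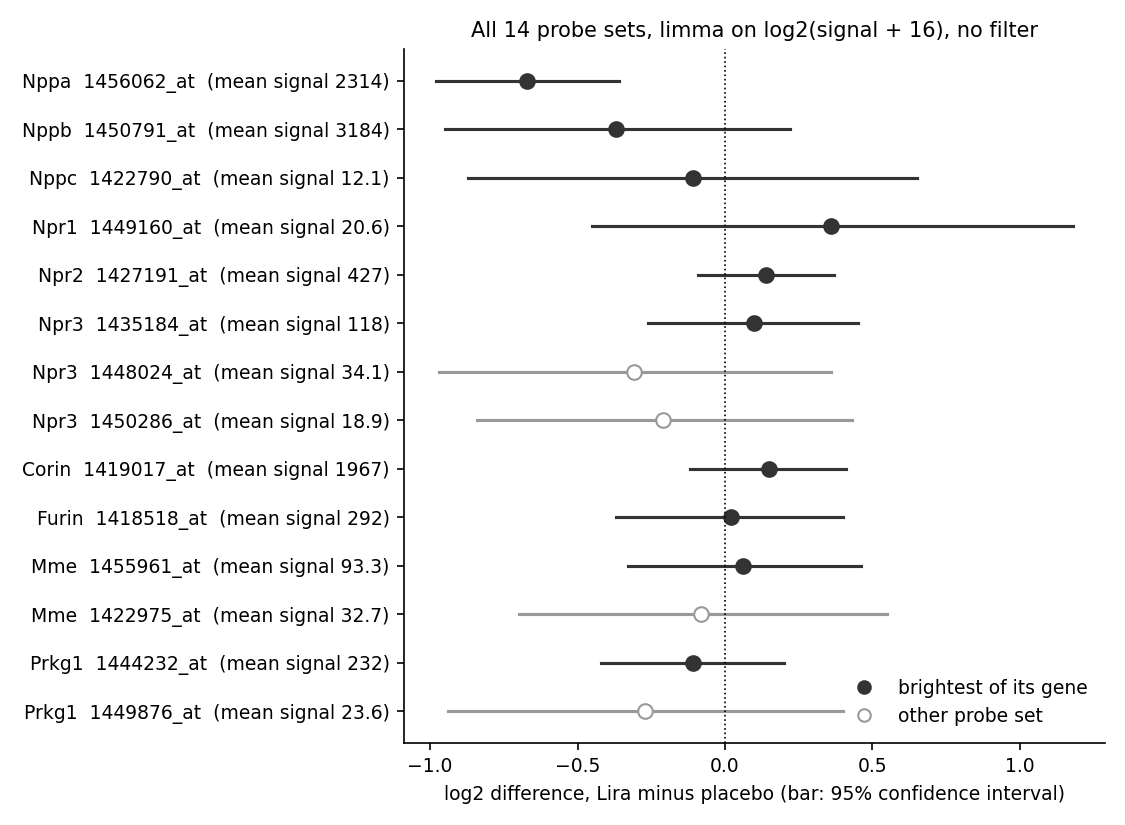
Log2 difference, Lira minus placebo, of all 14 member probe sets (points) with 95% confidence intervals (bars), from limma on every probe set with 1 gene and no filter. Filled points are the brightest probe set of each gene. The interval of Nppa, -0.98 to -0.36, is the 1 interval that leaves out 0, and dim probe sets have wide intervals.

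Counted by probe set, 8 of the 14 had a difference below 0 and 6 above, where 49.4% of all probe sets with 1 gene were below 0. In the fit to 34945 probe sets with 1 gene each, 0 members passed an adjusted p of 0.05 in limma, against 0.00286% of all, and 1 had an unadjusted p under 0.05, against 5.33% of all. That probe set was the one of Nppa (adjusted p = 0.61 in limma). Where a gene had several probe sets, which were Npr3, Mme and Prkg1, the dimmer ones always had the lower difference, and all of their intervals included 0.

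The rest of the pathway was read from a list of 38 genes in 7 roles. Of these 28 were tested, 7 were under the filter, and 3 were not analysed here. 0 passed an adjusted p of 0.05 in limma, where 0.0550% of all genes tested did. Of the 28, 15 had a difference above 0 and 13 below, and the median was 0.04. At an unadjusted p under 0.05 there was 1, against 6.00% of all genes tested, and this was Ece1. It encodes endothelin-converting enzyme, a relative of neprilysin, and read 529.8, 489 and 456 in the Lira mice, against 441, 386 and 384 in the placebo mice. All Lira mice lay above all placebo mice, a pattern shown by 3 of the 28 tested and by 5.99% of all genes tested, with a log2 difference of 0.27 ± 0.11 (SE; adjusted p = 0.76 in limma). With the 3 Ece1 probe sets averaged the difference was 0.04 (unadjusted p = 0.76 in limma), so the value is that of the brightest probe set.

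The nitric oxide-sensitive guanylyl cyclase is the other main source of cGMP in the heart. The 3 of its subunit genes on the list had differences above 0, with a median of 0.25. Gucy1a1 read 195, 181 and 156 in the Lira mice, against 134, 164 and 129.7 in the placebo mice (log2 difference 0.29 ± 0.15, adjusted p = 0.84 in limma). Gucy1b1 read 199.7, 172 and 166 in the Lira mice, against 162, 154 and 130.2 in the placebo mice, with every Lira mouse above every placebo mouse (0.25 ± 0.14, adjusted p = 0.86). With the probe sets of each gene averaged, the difference was 0.26 for Gucy1a1 and 0.15 for Gucy1b1 (unadjusted p = 0.19 and 0.25 in limma). Gucy1a2 gave 0.11 ± 0.27. None of the 3 had an unadjusted p under 0.05.

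Phosphodiesterases break cGMP down, and of 8 tested genes 4 lay above 0 and 4 below, with a median of 0.01. The smallest p among them belonged to Pde1b, a calmodulin-dependent enzyme, at 66.1, 76.6 and 40.2 in the Lira mice and 31.2, 44.3 and 47.8 in the placebo mice (0.41 ± 0.26, adjusted p = 0.87 in limma). Of 8 tested partners and targets of the kinase, 5 lay above 0 and 3 below. Rgs2, a brake on G protein signalling that the kinase activates, read 762, 546 and 601 in the Lira mice, against 1065, 678 and 710.3 in the placebo mice (-0.34 ± 0.16, adjusted p = 0.83). Lira replicate 1 lay above 2 of the placebo mice, and the difference was -0.14 without placebo replicate 1 and -0.47 without Lira replicate 1. With the 4 Rgs2 probe sets averaged it was -0.4 (unadjusted p = 0.033, adjusted p = 0.87 in limma). Ppp1r12a, the targeting subunit of myosin phosphatase, read 541, 522 and 492 in the Lira mice, against 475, 471 and 458 in the placebo mice (0.14 ± 0.10, adjusted p = 0.88).

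The other prohormone convertases and peptidases had 3 genes above 0 and 3 below among 6 tested. The cGMP export pumps Abcc4 and Abcc5 gave -0.02 ± 0.15 and -0.05 ± 0.15, and Pam, an enzyme abundant in the secretory granules of atrial cells, gave -0.16 ± 0.14 (SE). The other 4 granule genes on the list were under the filter.

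**Figure D5:**
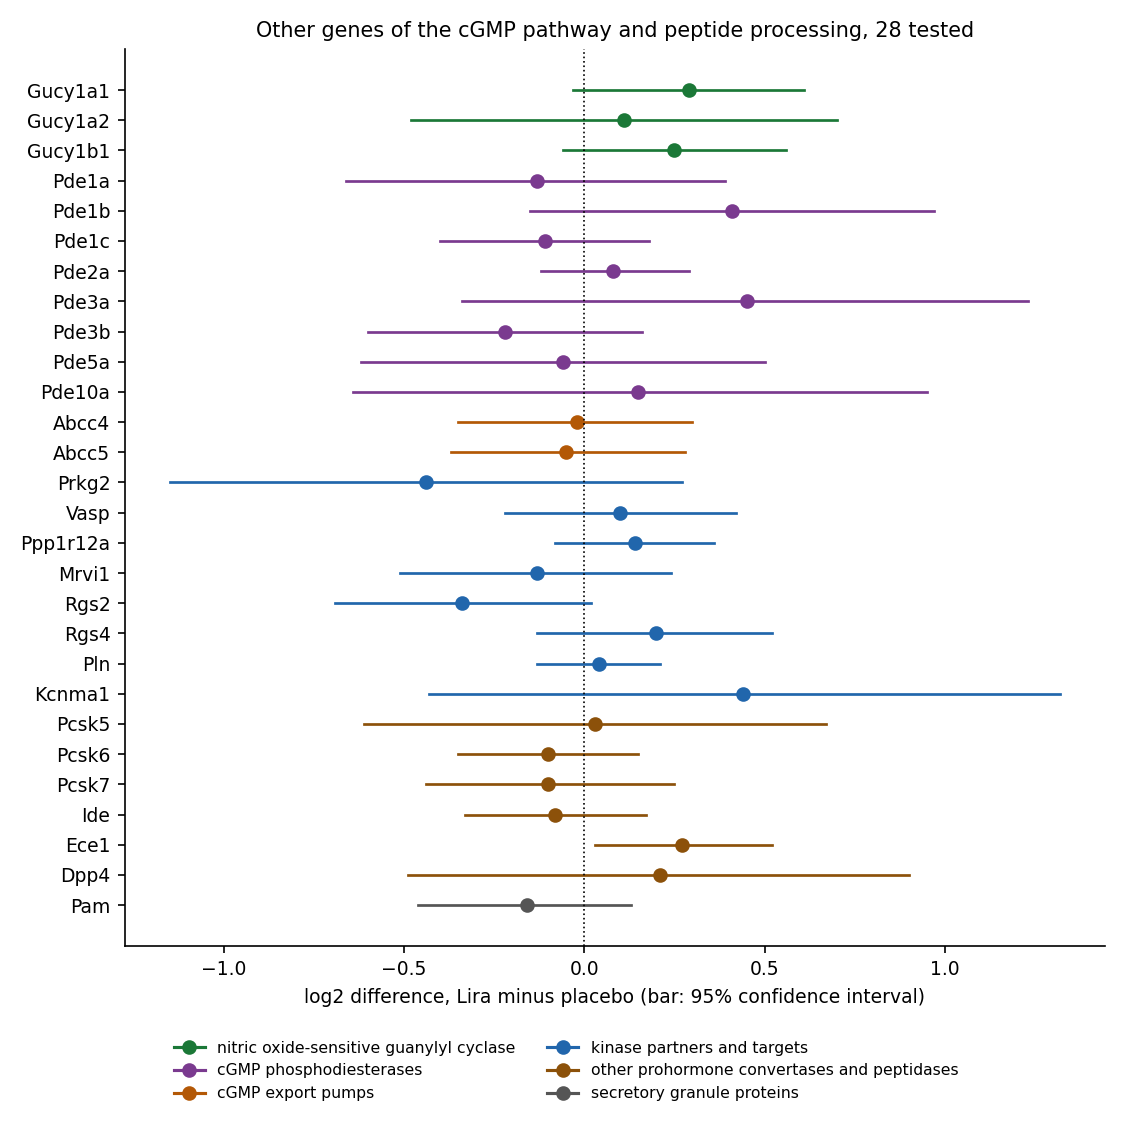
Log2 difference, Lira minus placebo, of the 28 tested genes of the wider pathway (points, coloured by role) with 95% confidence intervals (bars). The interval of Ece1, 0.03 to 0.52, is the 1 interval that leaves out 0, and its adjusted p was 0.76.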

How the data were processed

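The authors deposited 1 signal intensity per probe set and array on a linear scale. The submitters' processing notes name Affymetrix Expression Console as the tool, and its version and summarisation method were not given in the sources used here. Each array has a 2% trimmed mean of 150, as checked on the values, so only differences relative to other genes can be seen. The number of arrays limits the precision. No detection calls were used, and no genome build is named.

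Of 45101 probe sets, 34945 had 1 gene, 932 had several and 9160 had no gene in the name table, and the other 64 were control probe sets, which were left out. Gene IDs gave current RefSeq symbols for 99.42%. Each of 18193 genes was represented by its brightest probe set, as log2(signal + 16), and the 30% with the lowest mean log2 value were left out, leaving 12735. Fold changes on this scale understate dim genes. limma 3.58.1 in R 4.3.3 was fitted to Lira against placebo with lmFit and eBayes, using a trend of variance on signal. Tests were two-sided, and p-values were adjusted over all genes by Benjamini-Hochberg. Members under the filter come from a fit with no filter. The fit was tested on simulated data.

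The members, lists and tests were chosen with earlier results of these data known. The rule names the 10 members, the 6 pathway genes with the smallest p, the atrial markers and up to 2 genes of any other list. It also names the 5 genes nearest in profile to Nppa and to Nppb, without uncharacterised transcripts. Gucy1a2, Abcc4, Abcc5 and Pam were added after their values were seen, to complete their groups. Deviations from the group means of mice with the same replicate number correlated at -0.04, 0.09 and -0.09. Those of mice with different numbers correlated at -0.15 to 0.18. With 3 mice per group, these values cannot decide whether the numbers pair the mice.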

Additional observations from a re-analysis of the deposited data

How the results depend on the processing

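The number of natriuretic genes past the threshold in limma was 0 with all 6 arrays and 0 to 1 with each array left out in turn, the 1 being Nppb without placebo replicate 1. It was 0 under quantile normalisation, median centring, other filters, pseudocounts of 1 and 64, averaged probe sets, separate probe sets, a prior with no trend or a robust one, weighted arrays, a replicate block and an adjusted threshold of 0.10. At an unadjusted p under 0.05 it was 1 or 2 in all of these fits. The pathway genes past the threshold were 0 in all of them, with 0 to 3 at an unadjusted p under 0.05. Nppa had a negative difference in all 18 alternatives, from -0.81 to -0.50, with adjusted p from 0.06 to 0.89. With the replicate number as a block, its adjusted p was 0.06 and that of Nppb 0.82, and the block changed no call among the members. Signs turned in members with differences near 0. With averaged probe sets, Npr3 gave -0.14 and Mme -0.01, where the dimmer probe sets have the lower values. With single arrays left out, Furin ran from -0.15 to 0.18, below 0 without Lira replicate 2 (-0.15) and without placebo replicates 2 (-0.06) and 3 (-0.07). Mme ran from -0.02, without Lira replicate 1, to 0.13, and Prkg1 from -0.21 to 0.01, its value without Lira replicate 1. The cause of these turns was not tested. Over all genes, 7 passed with all arrays and 0 to 10 in the alternatives fitted by gene, with 498 to 983 at an unadjusted p under 0.05. With 24461 separate probe sets, 2 passed and 1375 had an unadjusted p under 0.05. Nppc and Npr1 are limited by their dim signals.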
